A study of Mus musculus with 6 samples.

Results

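The basement membrane collagens and linkers were followed in bone cells of mice treated with dexamethasone, a synthetic glucocorticoid. The set held 10 genes: the type IV collagen chains Col4a1, Col4a2, Col4a5 and Col4a6, the collagens Col15a1 and Col18a1, the nidogens Nid1 and Nid2, and the heparan sulfate proteoglycans Hspg2 (perlecan) and Agrn (agrin). They were chosen by gene symbol, and all 10 were found among the 29616 genes of the table. The bulk RNA sequencing compared 3 libraries from control mice with 3 from mice on dexamethasone, at a daily dose of 0.08 µg/g during 4 weeks that began at 8 weeks of age, all of the C57BL/6 strain. The labels call the control group Control only, and the study's figure legends name saline as its control treatment. The labels describe the material as bone cells, whereas the study describes sorting Osteocalcin-positive cells from demarrowed bone. Whether a library came from 1 mouse or from pooled mice was not given, so that the p-values concern these libraries only. In the limma test the variance of each gene is also drawn toward a trend over all genes. The limma p-values therefore do not measure a gene's own spread alone.

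Basement membranes are thin sheets of extracellular matrix that lie under endothelium and epithelium and around muscle, fat and Schwann cells. Type IV collagen chains assemble inside the cell into trimers and outside it into a network, and the nidogens and perlecan link this network to the laminin polymer. In bone, basement membranes are known mainly around blood vessels, while osteoblasts lay down a matrix of type I collagen without a basement membrane.

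The type IV collagen genes lie in head-to-head pairs, and the start regions of both pairs are shown because partners in a pair are compared below. Col4a1 and Col4a2 start on opposite strands of chromosome 8, and their first exons share 22 bases, given in capitals in the following stretch (chr8:11312801-11312830, plus strand). All stretches are from RefSeq on GRCm38.p6, run 5′ to 3′ on the strand named, and end before the annotated first exon except in this pair.
Col4a1 and Col4a2: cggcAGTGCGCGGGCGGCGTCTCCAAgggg
Col4a5 and Col4a6 lie on the X chromosome with start sites 1342 bases apart, and the stretches upstream of each were chrX:141475169-141475384 (plus strand) and chrX:141474077-141474326 (minus strand). In these and the next pair of stretches, capitals mark a GC box (GGGCGG) or a CCAAT box, which read CCGCCC or ATTGG where they lie on the opposite strand.
Col4a5: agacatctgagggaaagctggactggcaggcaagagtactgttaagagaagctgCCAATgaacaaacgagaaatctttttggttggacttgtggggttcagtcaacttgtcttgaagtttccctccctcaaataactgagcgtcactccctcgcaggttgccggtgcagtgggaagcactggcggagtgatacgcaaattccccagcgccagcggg
Col4a6: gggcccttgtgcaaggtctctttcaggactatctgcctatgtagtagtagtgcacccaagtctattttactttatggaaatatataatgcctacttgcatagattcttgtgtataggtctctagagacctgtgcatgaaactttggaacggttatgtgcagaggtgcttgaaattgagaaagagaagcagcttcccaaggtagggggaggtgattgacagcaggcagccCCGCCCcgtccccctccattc
Nid1 and Col15a1 are shown as members that rose with dexamethasone while their partners Nid2 and Col18a1 did not, at chr13:13437352-13437550 (plus strand) and chr4:47207762-47208011 (plus strand).
Nid1: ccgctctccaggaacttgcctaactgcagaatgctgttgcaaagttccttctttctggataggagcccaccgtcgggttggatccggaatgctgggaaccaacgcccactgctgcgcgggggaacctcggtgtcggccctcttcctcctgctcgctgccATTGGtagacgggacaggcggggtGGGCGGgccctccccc
Col15a1: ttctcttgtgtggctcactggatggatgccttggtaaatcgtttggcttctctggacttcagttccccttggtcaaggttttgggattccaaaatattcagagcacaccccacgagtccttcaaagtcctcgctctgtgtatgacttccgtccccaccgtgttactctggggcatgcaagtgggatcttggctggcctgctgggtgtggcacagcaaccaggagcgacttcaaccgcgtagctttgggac
For 9 of the 10 members RefSeq windows of 250 bases before to 50 bases after a start were at hand, 11 windows in all. A GC box on either strand was in 9 of these 11 windows and in 35.7% of the 32851 windows of all genes. The 11 windows are not independent, as those of Col4a1 and Col4a2 overlap and both hold the GC box of their shared stretch. Agrn and Col18a1 also have a pair of windows each. A CCAAT box was in 5 of the 11, those of Col4a1, Col4a2, Col4a5 and Nid1 and 1 of the pair of Col18a1 windows, against 37.4% of all windows. The letters TATAAA and AGAACA, the latter an arm of the glucocorticoid response element, were in 0 of the 11 windows and in 13.6% and 19.0% of all windows. The Col15a1 window held none of these 4 motifs, and the GC box of the Col4a5 window lies past the stretch printed. A match describes the letters of a window only.

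Recovered read totals were 72596611 to 89910728 per library, and a count of 0 allows up to 3 reads, a limit that covers counting error only. Of the osteoblast markers checked, 6 of 7 were called lower with dexamethasone and Dmp1 was called higher. The marker calls of this paragraph stand beside 11.7% of all genes tested called higher and 10.6% called lower, by cut-offs given below. The summed osteoblast markers went from 951851 to 1018141 normalized counts in the control libraries to 260369 to 295724 in the dexamethasone libraries. Osteocalcin (Bglap), which has near-identical copies and so an uncertain count, had only 107 ± 12.9 (SD, n = 3) and 12.2 ± 2.80 (SD, n = 3) normalized counts. Of 10 endothelial markers, 8 were in the table, with a summed level of 391 to 429.7 normalized counts in control and 487 to 522 in dexamethasone libraries. Most of this was Kdr, whereas Cdh5 had 0 to 2 reads and Tie1 0 to 3 reads in each library. Of the 5 endothelial markers tested, 1 was called higher and 0 lower, with a median log2 fold change of 0.25. By the limma adjusted p-value alone 3 were higher and 0 lower, beside 72.5% of all genes in either direction. Pecam1 (CD31) had a log2 fold change of 0.74 with a limma adjusted p of 0.0419, which was 0.207, 0.117 and 0.0986 without control replicate 1 and dexamethasone replicates 1 and 2, and Tek one of -0.75 (adjusted p = 0.146). The 8 pericyte and smooth muscle markers went from 172345–181795 to 43265–47234 normalized counts, mostly through Acta2, with 0 called higher and 3 lower by limma, edgeR and DESeq2 alike (by the unadjusted limma p-value, 2 higher and 4 lower). Their median log2 fold change was -0.49, and by the limma adjusted p-value 1 was higher and 4 lower. Of the first 3 genes listed, Cspg4 and Rgs5 had log2 fold changes of 0.43 (limma adjusted p = 5.64e-10) and 0.72 (limma adjusted p = 0.0511). Acta2 had one of -3.54. The 6 adipocyte markers went from 9.79–12.3 to 1412–1526, almost all of it Fabp4, with Cidec at 0 to 2 reads in each library. The 7 blood cell markers went from 159.9–179.9 to 817–869.8, mostly Itgb2 and Cd53, with Ptprc at 2 to 5 reads. Of the 6 blood cell markers tested 2 were called higher and 2 lower, with a median log2 fold change of -0.11. Cd53 had a value of 4.11 (limma adjusted p = 6.60e-16) and Laptm5 one of -1.49 (limma adjusted p = 0.00235). The 4 Schwann cell markers went from 609.6–661 to 378–413 with Sox10 at 0 to 4 reads, and the 3 skeletal muscle markers in the table were at 38.7–53.2 and 17.4–39.1. In bulk RNA a change in the number of cells of a type and a change in RNA per cell cannot be told apart, and the part of these markers in the results below was not tested.

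Members differed between the groups in both directions. Nid1, Col4a1, Col15a1 and Col4a2 rose 2.03-fold to 3.0-fold, Nid2 fell 3.61-fold, and the remaining 5 members stayed within the fold cut-off. A gene was called when its limma adjusted p-value was under 0.05 and its log2 fold change reached 1 up or down, which took in 22.3% of the 17442 genes tested (11.7% higher and 10.6% lower). Among the members, all of which had enough counts to be tested, 4 were called higher and 1 lower. By the adjusted p-value alone 10 of 10 members differed, 5 in each direction, beside 72.5% of all genes tested. The values of both groups did not overlap for 9 of the 10 members, Hspg2 being the exception, beside 74.7% of all genes. The median log2 fold change of the members was 0.04 and that of all genes 0.00071, and the median size of the change was 0.89 for the members and 0.45 for all genes. Dexamethasone replicate 1 had the highest value of its group for 10 of 10 members, against 47.8% of all genes tested and 62.4% of the 5541 tested genes with at least as many exon bases as the shortest member. Without this library 4 members were called, because Col4a2 had a log2 fold change of 0.97.

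**Figure D1:**
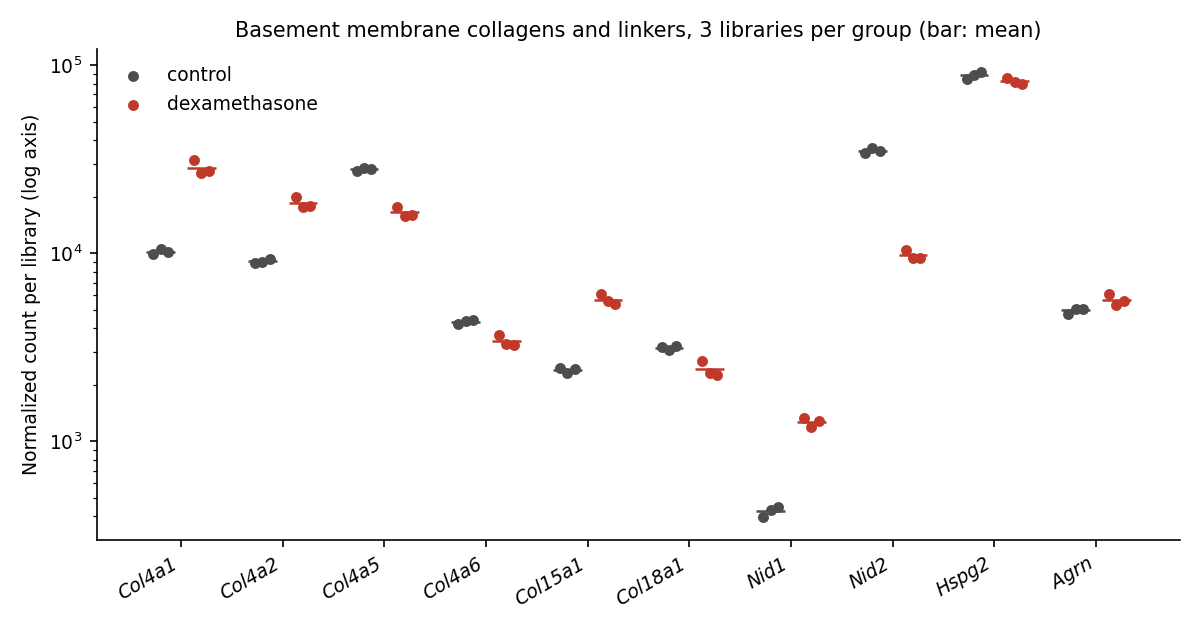
Normalized counts of the 10 members on a log axis, with 1 point for each library (3 control, 3 dexamethasone) and a bar at the group mean. Nid1 is the lowest member and Hspg2 the highest, and the points of both groups overlap for Hspg2 only.

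Col4a1 and Col4a2 encode the chains that join in the widespread type IV collagen trimer. Col4a1 had 9890.3, 10560.0 and 10140.0 normalized counts (read counts divided by a size factor for each library) in control replicates 1, 2 and 3. The dexamethasone libraries, in the same order, had 31313, 26828 and 27321. Every dexamethasone library lay above every control library, and dexamethasone replicate 1 stood highest. Col4a1 thus rose 2.79-fold, from 10197 ± 338 to 28487 ± 2459 (SD, n = 3 each), a log2 fold change of 1.48 (SE, standard error, 0.0456, limma adjusted p = 1.51e-19). Col4a2 had 8895, 9045 and 9311 normalized counts in the control libraries and 19973, 17725 and 17757 in the dexamethasone libraries. The groups did not overlap here either. Its rise from 9084 ± 211 to 18485 ± 1289 (SD, n = 3 each) was 2.03-fold, a log2 fold change of 1.02 (95% interval 0.94 to 1.11, limma adjusted p = 4.37e-17). This value lay at the cut-off, and it was 0.998 with edgeR, 0.91 with libraries scaled to equal totals (the same total) and 0.83 after quantile normalization. In the GENCODE M21 annotation, 0.295% of the Col4a1 exon bases and 0.982% of the Col4a2 exon bases lie under a gene of the opposite strand, in part the shared first exons.

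Col4a5 and Col4a6 encode chains of the more restricted networks, in which Col4a5 joins either Col4a6 or Col4a3 and Col4a4. Col4a5 had 27522, 28464 and 28108 normalized counts in the control libraries and 17754, 15883 and 16037 in the dexamethasone libraries. All dexamethasone values were below all control values. The mean was 1.69-fold lower, and the log2 fold change of -0.76 (95% interval -0.84 to -0.68, limma adjusted p = 1.01e-14) did not reach the fold cut-off. Col4a6 had 4193, 4373 and 4401 normalized counts in control and 3691, 3293 and 3258 in dexamethasone libraries. These groups were closer together but still separate. The log2 fold change was -0.34 (95% interval -0.43 to -0.25, limma adjusted p = 2.28e-07). The remaining chain genes were hardly read: Col4a4 had 36.6 ± 11.3 and 47.3 ± 14.9 (SD, n = 3 each) normalized counts with a limma adjusted p of 0.223, and Col4a3, with 11.9 ± 5.58 and 5.64 ± 4.96 (SD, n = 3 each), was under the minimum mean of 10 for testing.

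Levels of different genes were compared per kilobase of exon, and on this scale the make-up of the type IV collagen messages differed between the groups. The 4 chains together had 7453 ± 144 normalized counts per kb in control and 9502 ± 708 in dexamethasone libraries (SD, n = 3 each), 27.5% more. Col4a1 and Col4a2 made up 36.6, 36.8 and 36.9% of this sum in the 3 control libraries, and 69.9, 69.3 and 69.4% with dexamethasone. The share of Col4a1 went from 18.3 ± 0.322% to 40.1 ± 0.476% and that of Col4a2 from 18.4 ± 0.347% to 29.4 ± 0.178% (SD, n = 3 each). Col4a5, the main chain of the control libraries, went from 56.0 ± 0.204% to 26.0 ± 0.295%, and Col4a6 from 7.27 ± 0.0761% to 4.51 ± 0.0497% (SD, n = 3 each). For each of these shares the groups did not overlap, and the exact two-sided permutation test gave p = 0.1, the smallest value that 3 against 3 libraries can give. The joint share of Col4a1 and Col4a2 was 37.4% and 70.2% when lengths were taken from the longest transcript.

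**Figure D2:**
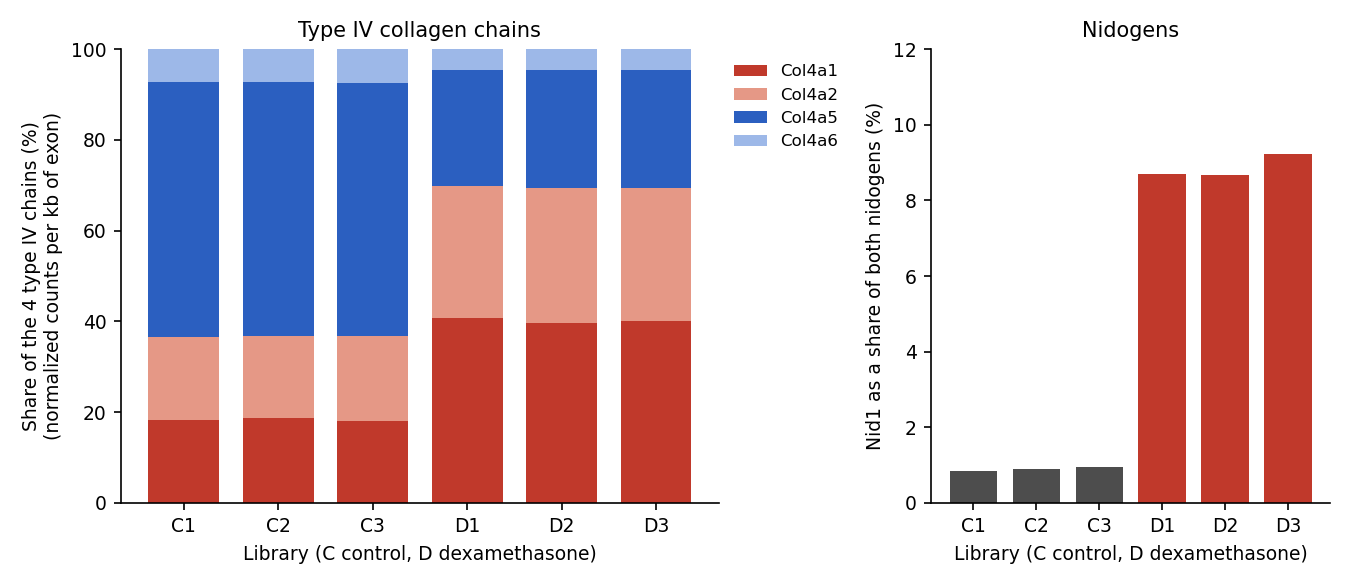
Left, the share of each type IV collagen gene in the sum of the 4 genes (percent, normalized counts per kb of exon), stacked for each library. Right, Nid1 as a percent of both nidogens on the same scale. C1 to C3 are control and D1 to D3 dexamethasone libraries, and the share of Col4a1 plus Col4a2 is near 36.7% in the former and 69.5% in the latter.

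The nidogens, glycoproteins that bridge laminin and type IV collagen, moved in opposite directions. Nid2, by far the more abundant, had 34219.8, 36381 and 35123 normalized counts in the control libraries and 10429.9, 9412 and 9458 in the dexamethasone libraries. It fell 3.61-fold, from 35241 ± 1085 to 9767 ± 575 (SD, n = 3 each), a log2 fold change of -1.85 (SE 0.0402, limma adjusted p = 1.03e-22), the largest change among the members. Nid1 had 395, 434 and 446 normalized counts in control and 1335, 1200.1 and 1292 in dexamethasone libraries. For both genes the groups stood far apart compared with the spread within them. Nid1 rose 3.0-fold, from 425 ± 26.7 to 1275 ± 68.7 (SD, n = 3 each), a log2 fold change of 1.58 (SE 0.0655, limma adjusted p = 6.72e-17). The rise of Nid1 was small in counts beside the loss of Nid2. Nid1 went from 0.852, 0.882 and 0.936% to 8.70, 8.68 and 9.24% of the nidogen messages per kb, while both nidogens together went from 6872 ± 212 to 2071 ± 119 normalized counts per kb (SD, n = 3 each), 3.32-fold lower. Both differences had an exact permutation p of 0.1, the smallest possible. Rtraf, read from the other strand, covers 8.45% of the Nid2 exon bases, and Gm48682 2.06% of the Nid1 exon bases. The library kit keeps strand, but whether the count used it was not given, and without it reads from such stretches cannot be assigned. Of the 75-base positions of Nid1, 1.35% also occur in other genes.

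Collagens XV and XVIII are related basement membrane proteoglycans whose C-terminal fragments, restin and endostatin, are known as inhibitors of angiogenesis. Col15a1 had 2463, 2303 and 2431 normalized counts in the control libraries and 6064, 5585 and 5388 in the dexamethasone libraries. The lowest dexamethasone value was above the highest control value by more than the whole spread of either group. Col15a1 rose 2.37-fold from 2399 ± 84.4 to 5679 ± 347 (SD, n = 3 each), a log2 fold change of 1.24 (SE 0.0441, limma adjusted p = 2.85e-18). Col18a1 had 3181, 3059.8 and 3236 normalized counts in control and 2692, 2323 and 2262 in dexamethasone libraries. All dexamethasone values lay below the control values, but by a smaller factor of 1.30. Its log2 fold change of -0.39 (95% interval -0.49 to -0.28, limma adjusted p = 3.59e-07) was short of the cut-off.

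Perlecan and agrin are large heparan sulfate proteoglycans, of which agrin also clusters receptors at the neuromuscular junction, and both differed less than any other member. Hspg2 had 84939, 88789 and 92679 normalized counts in the control libraries and 85585, 81286 and 79637 in the dexamethasone libraries. Dexamethasone replicate 1 was above control replicate 1, so that the groups overlapped. The log2 fold change of -0.11 (95% interval -0.20 to -0.02) had a limma adjusted p of 0.0266, which was 0.205 without control replicate 3, 0.0534 without control replicate 2, and 0.0757 and 0.134 without dexamethasone replicates 2 and 3. With limma without the variance trend, Hspg2 had an adjusted p of 0.0979. Agrn had 4774, 5075 and 5079 normalized counts in control and 6069, 5334 and 5607 in dexamethasone libraries. These groups were separate by a narrow gap. The log2 fold change of 0.19 (95% interval 0.10 to 0.28, limma adjusted p = 0.000464) was 0.07 at the same total (adjusted p = 0.0627) and -0.0026 after quantile normalization, so that its direction depended on the scaling. Together the 10 members had 186636 ± 5479.9 normalized counts in control and 173929 ± 9513 in dexamethasone libraries (SD, n = 3 each, exact permutation p = 0.2), and Hspg2 was the largest part of this sum in both groups. As a share of all normalized counts they made up 0.237, 0.237 and 0.246% in control and 0.216, 0.205 and 0.199% in dexamethasone libraries. This share did not overlap between the groups and was 13.9% lower with dexamethasone (exact permutation p = 0.1, the smallest possible).

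**Figure D3:**
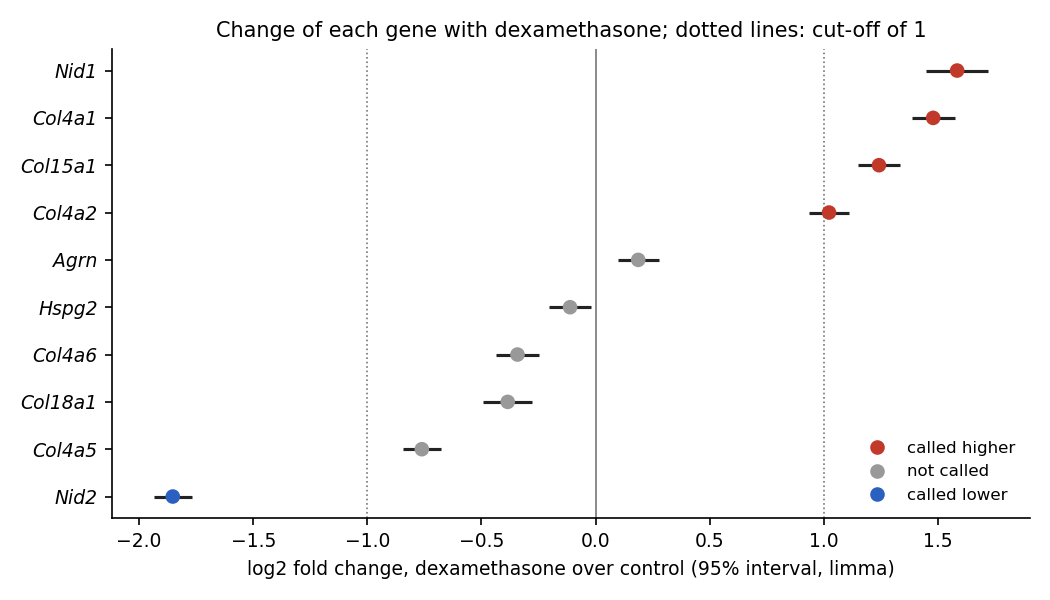
Log2 fold change of each member, dexamethasone over control, with its 95% interval from limma. Dotted lines mark the cut-off of 1 in either direction. Nid1, Col4a1 and Col15a1 lie past it with their whole interval, Col4a2 at 1.02 has an interval that includes it, and Nid2 lies at -1.85.

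The order of the members by level per kb of exon was not the same in both groups. In the control libraries Nid2 (6811 ± 209.8 normalized counts per kb, SD, n = 3) came before Hspg2 (6207 ± 270.5) and Col4a5 (4173 ± 70.8). Col4a2 (1372 ± 31.8) and Col4a1 (1366 ± 45.3) followed and overlapped each other, as did Col4a6 (542 ± 14.2) and Agrn (536 ± 18.8). Col18a1, Col15a1 and Nid1 were the lowest at 450.0 ± 12.9, 378 ± 13.3 and 61.2 ± 3.84 normalized counts per kb. With dexamethasone, Hspg2 was first (5743 ± 215), and Col4a1 (3817 ± 329.5) and Col4a2 (2793 ± 195) came before Col4a5 (2465 ± 155) and Nid2 (1888 ± 111). Nid2 thus went from the first to the fifth place and Col15a1, at 895 ± 54.7, from the ninth to the sixth. Agrn, Col4a6, Col18a1 and Nid1 closed the order at 611 ± 40.0, 428 ± 30.1, 345 ± 33.2 and 184 ± 9.89 normalized counts per kb. No neighbours in the dexamethasone order overlapped.

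A ratio of partner genes within a library does not depend on the factor by which the library was scaled, and 5 such pairs were compared. The ratio of Nid1 to Nid2 was 0.0115, 0.0119 and 0.0127 in the control libraries and 0.128, 0.128 and 0.137 in the dexamethasone libraries, 10.8-fold higher. The ratio of Col15a1 to Col18a1 was 0.774, 0.753 and 0.751 in control and 2.25, 2.40 and 2.38 in dexamethasone libraries, 3.09-fold higher, so that the more abundant partner in counts changed from Col18a1 to Col15a1. The ratios within the head-to-head pairs were also separate between the groups, by smaller factors. Col4a1 to Col4a2 went from 1.11, 1.17 and 1.09 to 1.57, 1.51 and 1.54, a difference of 0.46 in the log2 ratio. Col4a5 to Col4a6 went from 6.56, 6.51 and 6.39 to 4.81, 4.82 and 4.92, a difference of -0.42. Hspg2 to Agrn went from 17.8, 17.5 and 18.2 to 14.1, 15.2 and 14.2, a difference of -0.30 that was -0.11 after quantile normalization, which does not scale by a single factor and was added after seeing the data. In all 5 pairs the 3 control and 3 dexamethasone libraries did not overlap, beside 74.7% of all genes for single gene values, and each exact two-sided permutation p was 0.1, also after adjustment over the 5 pairs, the smallest that the design allows.

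**Figure D4:**
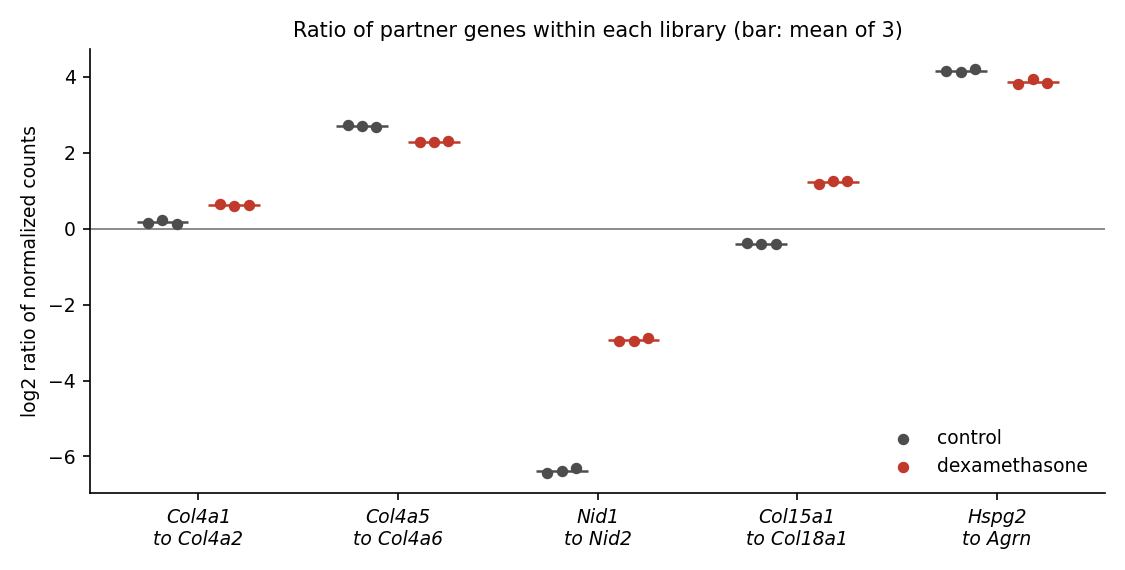
Log2 ratio of the normalized counts of partner genes in each library, with 1 point a library and a bar at the mean of 3. Nid1 to Nid2 moves most, by 3.44, and Hspg2 to Agrn least, by -0.30, and the groups are separate in each pair.

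The partners of these proteins in the basement membrane were counted from fixed lists, in which genes outside the top 3 by level were named after their values were seen. The counts stand beside 11.7% of all genes tested called higher and 10.6% called lower. Laminin chains, which form the polymer that nidogen ties to type IV collagen, had 10 of 11 genes tested, with 4 called higher and 1 lower and a median log2 fold change of 0.41, to which Lama3 contributed only its rank. Lamb1 rose with a log2 fold change of 1.09, which was 0.97 at the same total and 0.93 after quantile normalization, and Lamb2 had one of -0.87, which passed the cut-off at -1.04 after quantile normalization. Lamc1, the gamma chain shared by most laminins, had a value of 0.06 (limma adjusted p = 0.212) that was -0.0574 at the same total and -0.0406 after quantile normalization. Of the low-level chains, Lamb3 (1.94) rose and Lama1 (-2.65) fell. Lama3, also called higher, had 2, 3 and 3 reads in control and 22, 25 and 17 reads in dexamethasone libraries. Of 16 other basement membrane proteins 10 were tested, 4 were called higher and 2 lower, and the median was 0.55. Here Fbln2 (fibulin 2, a nidogen and perlecan binder) rose by 1.05 on the log2 scale, short of the cut-off at the same total (0.94) and after quantile normalization (0.99), and Npnt (nephronectin, an integrin ligand) had a log2 fold change of -2.18 and fell. Matn2 had a value of 0.22. Col7a1, the anchoring fibril collagen, Smoc2 and Tinagl1 rose (3.32, 3.76 and 1.41), and Hmcn1 fell (-3.60).

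Of 14 genes that fold and crosslink collagen, all tested, 0 were called higher and 3 lower, beside 11.7% and 10.6% of all genes. Their median was -0.34. By the limma adjusted p-value alone 4 were higher and 7 lower, and by the unadjusted one 4 and 8. edgeR and DESeq2 also called 0 higher and 3 lower. Sparc, which binds collagen, fell with a log2 fold change of -1.33, and so did Plod2 (-1.28) and P3h2 (-1.45), which hydroxylate collagen lysine and proline. Of the P3h2 exon bases, 28.4% lie under Gm4524 on the opposite strand, so that its count is uncertain. The collagen chaperone Serpinh1 had a value of -0.77 and P4hb, a subunit of prolyl hydroxylase, 0.18. Pxdn, the peroxidase that crosslinks type IV collagen, had 0.66, under the cut-off. Heparan sulfate genes, which build the chains on perlecan, agrin and collagen XVIII, had 12 of 15 tested, 1 called higher (Ext1, 1.14) and 1 lower (Sulf2, -1.20), with a median of -0.03. Ext2, the polymerase partner of Ext1, had -0.36, and the epimerase Glce 0.15, which was -0.0219 after quantile normalization.

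Among 11 receptors, all tested, 1 was called higher and 3 lower, with a median of 0.02. The laminin-binding integrin chain Itga6 rose from 1378 ± 49.9 to 18635 ± 554 normalized counts (SD, n = 3 each), a log2 fold change of 3.76, and Itga1, a chain of a collagen receptor that binds type IV collagen, fell by 1.91 on the log2 scale. The agrin receptor parts Lrp4 and Musk fell, with log2 fold changes of -2.24 and -2.46, beside the value of 0.19 for Agrn itself. The most abundant receptor genes, Itgb1, Ddr2 and Dag1, had values of 0.11, 0.02 and 0.23, of which that of Ddr2 was -0.0069 with edgeR, -0.0951 at the same total and -0.0646 with quantile normalization. Among proteases that cleave basement membrane components, 8 of 9 were tested, 0 were called higher and 4 lower, beside 11.7% and 10.6% of all genes, and the median was -0.91. By the unadjusted limma p-value 1 was higher and 6 lower, and edgeR and DESeq2 gave the same 0 and 4 calls. Mmp14 (-1.24), Mmp2 (-1.02), Mmp9 (-1.16) and Tll1 (-1.55) fell. The value of Mmp2 was -0.9995 without control replicate 2 and -0.99 without dexamethasone replicate 2, just short of the cut-off. Ctsb, the most abundant lysosomal protease among them with 53473 ± 2417 normalized counts (SD, n = 3) in control libraries, had a limma adjusted p of 0.927, and 12.8% of its exon bases lie under Fdft1 on the opposite strand.

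**Figure D5:**
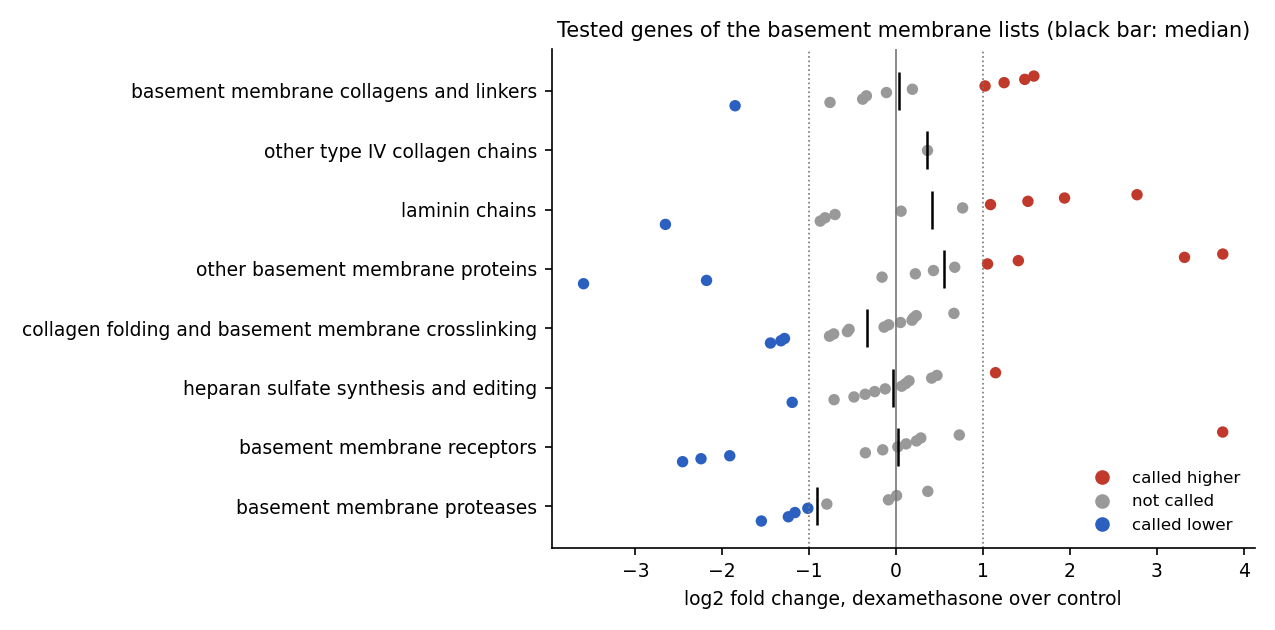
Log2 fold change (dexamethasone over control, limma) of each tested gene in the basement membrane lists, 1 point a gene, with a black bar at the list's median and dotted lines at the cut-off of 1. Points called higher are absent from the folding, protease and other type IV chain lists, and every other list, the members included, has genes called in both directions. The rightmost laminin point, Lama3, rests on 3 or fewer reads in each control library.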

How the data were processed

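Per the submitters' processing notes, the authors used STAR 2.7.10a for alignment to GRCm39 and DESeq2 1.36.0 for normalization. The deposited signal values are read counts divided by a size factor for each library, and 100% of them were whole multiples of the value of 1 read within a tolerance of 0.001. Which annotation release was used, and whether counting used strand, is not given in the sources used here. GENCODE M21 (GRCm38) gave a symbol to 28087 of 29616 genes and was used for names, exon lengths and overlaps only. Genes with a mean of at least 10 were log2-transformed after adding 1 and tested with limma 3.58.1 in R 4.3.3 (two-sided, Benjamini-Hochberg over 17442 genes), with the cut-offs of the study's methods. The added 1 makes fold changes of low genes smaller than the ratio of their counts. Shares and ratios were compared with exact permutation tests. The fit was also run on simulated counts, in which fewer genes changed than were called here and each by more than the cut-off. That run does not cover genes near the cut-off, such as Col4a2. Count models on the recovered reads (DESeq2 1.42.0, edgeR 4.0.16), other scalings, filters, pseudocounts, a replicate block and leaving out each library were alternatives, and the length scaling of shares and quantile normalization of ratios were added after seeing the data. The text names all members, the 3 genes with the highest mean of each pathway list and the first 3 of each marker list, of which the results are given mostly as sums. Members and lists were chosen with earlier results of these data known. Replicate libraries differed beyond sampling noise (chi-square per degree of freedom 3.27 to 26.1).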

Additional observations from a re-analysis of the deposited data

How the results depend on the processing

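The 5 partner ratios kept their direction in all 55 alternative values. Those at the same total and with a replicate block could not turn and say nothing on this. The scaling cancels in a ratio, and pairing the libraries leaves the difference of the means unchanged. Quantile normalization, added after seeing the data, took Hspg2 to Agrn to -0.11, outside its range over left-out libraries of -0.33 to -0.28. These ranges were 0.43 to 0.48 for Col4a1 to Col4a2, -0.43 to -0.41 for Col4a5 to Col4a6, 3.40 to 3.47 for Nid1 to Nid2 and 1.61 to 1.66 for Col15a1 to Col18a1. The 3894 genes called became 2170 at a mean of at least 100, with 62.2% of calls higher against 52.3%, 3940 at the same total with 44.7% higher, 5326 with no filter with 49.4% higher, and 12645 with no requirement on the fold change, which also took the members from 5 to 10, both by construction. Leaving out a library gave 3888 to 3922 genes and 4 to 5 members. Of the members, only Col4a2 lost its call in these alternatives, at the same total, after quantile normalization, with edgeR and without dexamethasone replicate 1, and the cause was not tested beyond its nearness to the cut-off. Rescaling to the same total moved the median of all genes from 0.00071 to -0.11 and quantile normalization to -0.07. Directions turned for Agrn (-0.0026, quantile), Lamc1 (-0.0574 same total, -0.0406 quantile), Glce (-0.0219, quantile), Ddr2 (-0.0951 same total, -0.0646 quantile, -0.0069 edgeR) and Ctsb (-0.109 same total, -0.0714 quantile, -0.0213 edgeR, -0.0042 DESeq2, and -0.0221 to 0.0444 over left-out libraries), all near 0, and the cause was not tested. A replicate block gave 3897 genes and 5 members, and the adjusted p of Hspg2, which was 4.55e-06 to 0.205 over the alternatives, was 0.126 with it. Limma without the variance trend gave 3792 genes and 5 members. Its adjusted p-values were larger, 2.63e-05 for Col4a1, 4.92e-06 for Nid2, 0.0380 for Agrn and 0.0979 for Hspg2. Same-numbered libraries did not deviate together (correlations of -0.0999, -0.105 and -0.0199). This gave no sign that the numbers pair them, but such a check cannot exclude a small shared effect.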
